A study of Mus musculus with 11 samples.

Results

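A set of 10 genes that write, copy, remove or protect DNA methylation is described here in mouse oocytes and 2-cell embryos. They were taken by symbol from a table of read counts for 24421 genes, and all 10 were found: Dnmt1, Uhrf1, Dnmt3a, Dnmt3b, Dnmt3l, Tet1, Tet2, Tet3, Dppa3 and Zfp57. Total RNA was sequenced from mature MII oocytes, which wait in the second meiotic metaphase for fertilisation, and from late 2-cell embryos, of females with or without the histone chaperone gene Daxx in their oocytes.

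DNA methylation is a methyl group on cytosine, mostly where a G follows the C. Dnmt3a and Dnmt3b add it to unmethylated DNA, Dnmt3l has no catalytic activity of its own and assists them, and Dnmt1 copies it onto the new strand after replication at sites that Uhrf1 recognises. The Tet enzymes oxidise the methyl group, which starts its removal. In the growing oocyte Dnmt3a and Dnmt3l lay down the maternal methylation pattern, and much of it is lost again after fertilisation, when maternal Tet3 acts on the paternal genome. Dppa3 (also called Stella) shields the maternal genome in the zygote, and Zfp57 binds the methylated copy of imprinted regions and holds methylation there.

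The oocytes came from 2 genotypes with 3 libraries each. Control females were Daxx f/f, which is the floxed Daxxtm2Led allele on both chromosomes, and knockout females were Daxx f/f with the transgene Tg(Zp3-cre)93Knw, whose Zp3 promoter drives Cre recombinase in growing oocytes. Both had mixed C57BL/6J and 129/Sv ancestry, were over 8 weeks old, and were given 5 IU of PMSG and then 5 IU of hCG. Oocytes were collected 20 hours after hCG. Embryos came from oocytes fertilised in vitro with sperm of 8-week-old JF1 males, selected as zygotes with 2 pronuclei, and grown in KSOM medium to 33 hours after fertilisation. There were 3 libraries of control embryos (Daxx f/f; m+z+) and 2 of maternal knockout embryos (Daxx f/f; Zp3-cre; m-z+), replicates 2 and 3, which inherit a Daxx allele from the sperm. Each library pooled 50 oocytes or embryos taken from 2 to 3 females, and only knockout females carried the transgene, so that the loss of Daxx and the transgene itself cannot be told apart. Embryos differ from oocytes in stage and also in their JF1 genome.

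Total counts were 32582998 to 39798586 in the oocyte libraries and 17978192 to 25308468 in the embryo libraries. Daxx was measured at 97.2, 94.2 and 86.2 CPM (reads of a gene relative to all counted reads of its library) in the control oocytes and at 8.20, 8.40 and 7.83 CPM in the knockout oocytes. Its log2 change there was -3.52 (SE 0.07, edgeR adjusted p = 1.24e-11). In embryos Daxx stood at 37.3, 35.2 and 46.7 CPM in controls and at 22.8 and 25.5 CPM after maternal knockout, with no overlap (log2 -0.75, SE 0.19, edgeR adjusted p = 0.544). The 10 oocyte markers summed to 10631 to 11008 CPM in oocytes and fell in embryos, where they summed to 1534 to 2050.1 CPM, and the 8 markers of the 2-cell stage in the table summed to 3.07 to 8.56 CPM in oocytes and 528 to 739 CPM in embryos. Markers of granulosa and cumulus cells, which surround the oocyte, summed to 35.9 to 46.2 CPM in oocytes and 15.7 to 26.2 CPM in embryos. Fst and Ptx3 of this list had no read in any oocyte library. Others were read in every oocyte library, with Cyp19a1 at 17.17 to 19.55, Kitl at 8.07 to 10.29 and Cyp11a1 at 5.935 to 9.455 CPM. The 11 spermatid markers summed to 202 to 274 CPM in all libraries and were nearly all Odf2, while the 7 blood markers in the table did not pass 3.96 CPM.

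On GRCm38 the RefSeq annotation places the copying pair Dnmt1 at chr9:20907206-20959888 (minus strand) and Uhrf1 at chr17:56303337-56323486 (plus), and the de novo genes Dnmt3a at chr12:3801559-3914443, Dnmt3b at chr2:153649411-153687730 and Dnmt3l at chr10:78042287-78063622 (all plus). The Tet genes lie on minus strands, Tet1 at chr10:62804570-62887469, Tet2 at chr3:133463677-133545136 and Tet3 at chr6:83362373-83457208. Dppa3 spans chr6:122626424-122630271 and Zfp57 chr17:37001163-37010729 (both plus). The table holds 1 count per gene and library, with deposited gene widths from 818 bases for Dppa3 to 14951 for Tet1.

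The RefSeq promoter table (GRCm38.p6) held 18 windows of 250 bases before a transcript start for 9 of the 10 genes. Only 2 of these windows, a window of Dnmt1 and a window of Zfp57, lay outside the RefSeq gene and outside every exon of the GENCODE annotation. They are shown for this position alone. Both are written 5′ to 3′ on the gene's strand, with every CG, the site of methylation, in capitals.
Dnmt1, chr9:20959889-20960138, minus strand: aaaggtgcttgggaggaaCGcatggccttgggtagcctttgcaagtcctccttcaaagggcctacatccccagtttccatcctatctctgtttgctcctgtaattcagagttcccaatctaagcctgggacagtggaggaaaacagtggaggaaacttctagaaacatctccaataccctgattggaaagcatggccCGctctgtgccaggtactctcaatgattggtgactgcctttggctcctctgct
Zfp57, chr17:37000913-37001162, plus strand: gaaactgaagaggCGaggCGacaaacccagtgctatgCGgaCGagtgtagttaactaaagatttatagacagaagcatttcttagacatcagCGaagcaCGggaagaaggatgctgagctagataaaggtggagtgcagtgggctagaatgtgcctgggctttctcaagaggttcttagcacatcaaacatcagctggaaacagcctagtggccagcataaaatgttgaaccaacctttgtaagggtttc

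The Dnmt1 window holds 2 CG and the Zfp57 window 6, where all 32851 windows of this length had a median of 6 CG and quartiles of 2 and 16. Motifs were searched on both strands as the TATA box TATAAA, the CCAAT box, the GC box GGGCGG, the E-box CACGTG, and the homeodomain motifs TAATTG and also TAATCC. The Dnmt1 window holds the CCAAT box, which is in 33.9% of all windows. The Zfp57 window holds TATAAA only on the other strand, read as TTTATA, and 12.4% of all windows hold it on either strand. Neither window holds another of the 6, and whether these matches act as promoter elements was not tested. Dnmt1 and Zfp57 also have windows that overlap the gene and are not shown. Those of Dnmt1 hold 7 and 26 CG, and the window with 26 CG holds the GC box and the CCAAT box. Those of Zfp57 hold 3 and 7 CG. The counts were summed per gene and do not tell which of a gene's starts was used.

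On the scale of CPM per kilobase of the deposited gene width, the 10 genes covered more than 3 orders of magnitude in control oocytes. This width was 64.06% of the GENCODE exon length for Tet2, 67.65% for Dnmt3a and 71.4% for Tet3. It was 94.97% for Dnmt1 and 96.73% for Tet1. The order of the genes, the family shares and the ratios per kb all rest on this width, and other widths were not tried. Zfp57 led with 899.9 ± 31.9 (SD, n = 3) CPM per kb, followed by Dppa3 with 752 ± 69.7. They ranked 21 and 29 among all genes of the table. Dnmt1 came next at 326 ± 14.95 CPM per kb, then Tet3 at 235 ± 19.6 and Uhrf1 at 224 ± 5.12, whose ranges overlapped. The helpers and enzymes of new methylation were lower, with Dnmt3l at 41.9 ± 1.84, Dnmt3a at 23.6 ± 0.765 and Dnmt3b at 4.95 ± 0.265 CPM per kb. Tet2 stood at 2.02 ± 0.446 and Tet1 was last at 0.294 ± 0.0771 CPM per kb. Apart from Tet3 and Uhrf1, the ranges of neighbours in this order did not overlap. The order was the same in knockout oocytes.

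In control 2-cell embryos Dppa3 was first with 799 ± 57.6 CPM per kb (SD, n = 3), at rank 30 among all genes, and Zfp57 followed with 191 ± 27.4 at rank 197. Tet3 at 66.9 ± 7.59 CPM per kb now stood above Dnmt1 at 39.6 ± 3.24 and Uhrf1 at 36.01 ± 5.41, and the last 2 overlapped. Dnmt3l had 15.4 ± 3.16, Dnmt3a 9.96 ± 0.618, Dnmt3b 7.69 ± 1.07, Tet1 6.68 ± 1.19 and Tet2 2.60 ± 0.4005 CPM per kb, with Dnmt3b and Tet1 overlapping. The 10 genes together took 0.967% to 1.02% of all reads in oocyte libraries and 0.259% to 0.330% in embryo libraries.

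**Figure D1:**
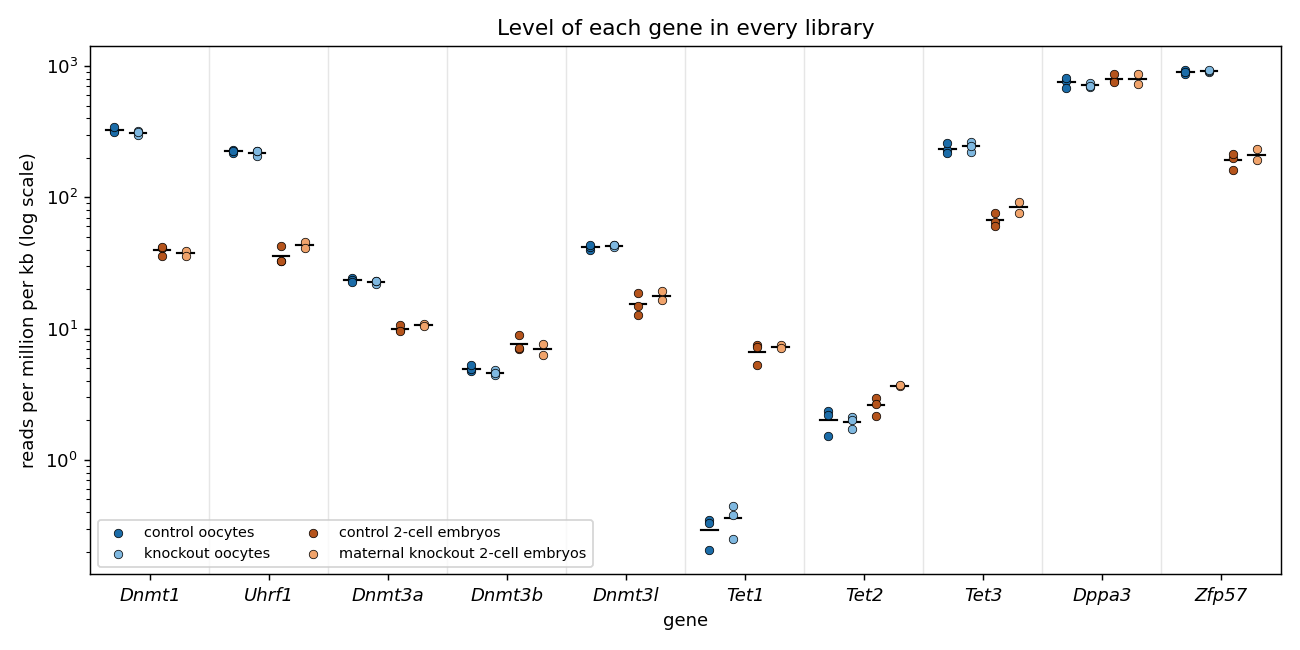
Level of each of the 10 genes in every library, in CPM per kb of gene width on a log axis, with a point per library and a bar at the group mean. Dnmt1, Uhrf1, Tet3 and Zfp57 sit lower in the 2-cell embryos than in the oocytes, Tet1 sits higher, and Dppa3 lies at a like level in all 4 groups, with means from 713 to 802 CPM per kb.

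Between control oocytes and control embryos the methylation machinery shifted in both directions. Of the 10 genes, 6 fell (Dnmt1, Uhrf1, Zfp57, Tet3, Dnmt3l and Dnmt3a), 2 rose (Tet1 and Dnmt3b) and 2 did not pass the test (Tet2 and Dppa3). Among all 15577 genes tested, 40% fell and 43.1% rose (edgeR, adjusted p under 0.05), so a change in itself was common at this transition. The CPM ranges of embryos and oocytes did not overlap for the 8 genes that passed, as for 85% of all genes tested. The median log2 change was -1.37 over the 10 genes and 0.07 over all genes. These are changes in the share of reads, since RNA per oocyte or embryo was not measured, and in pooled samples fewer cells that express a gene and less RNA per cell cannot be told apart.

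The pair that copies methylation after replication had the 2 largest falls. Dnmt1 was read at 2258, 2197 and 2401 CPM in the control oocytes and at 251, 288 and 292 CPM in the control embryos. Each embryo library thus lay far below each oocyte library, and the fall was 8.40-fold (log2 -3.07, SE 0.09, edgeR adjusted p = 9.12e-11). Uhrf1, which brings Dnmt1 to hemimethylated DNA, went from 838, 801 and 816 CPM to 120.5, 154 and 119.7 CPM. Its groups were as clearly apart, with a 6.33-fold fall (log2 -2.66, SE 0.11, edgeR adjusted p = 1.11e-09).

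The de novo methyltransferases parted ways. Dnmt3a, the main enzyme of the growing oocyte, was at 274, 265 and 257 CPM in control oocytes and at 109, 120.1 and 107 CPM in control embryos, a 2.41-fold fall (log2 -1.27, SE 0.09, edgeR adjusted p = 6.12e-08). Its partner Dnmt3l fell from 107, 113 and 117 CPM to 33.7, 50.3 and 39.5 CPM, or 2.77-fold (log2 -1.47, SE 0.14, edgeR adjusted p = 9.5e-07). Dnmt3b, the enzyme known for its part in methylating the embryo around implantation, moved the other way. It was read at 20.4, 21.2 and 22.7 CPM in control oocytes and at 30.2, 31.0 and 38.6 CPM in control embryos, so that the lowest embryo lay above the highest oocyte library (log2 0.61, SE 0.13, edgeR adjusted p = 0.000832). Dnmt3l shares 67 exonic bases with Aire on the opposite strand, and Aire stood at 11.3 to 12.5 CPM in control oocytes and 1.11 to 2.46 CPM in control embryos. Dnmt3a likewise shares 133 exonic bases with Dnmt3aos, which had at most 1.38 CPM in any library. Tet2 shares 43 exonic bases with Gm42567, also on the opposite strand. Whether the counting used strand is not stated in these sources, so that a part of such reads could belong to either gene.

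The 3 Tet dioxygenases showed 3 patterns. Tet3, the abundant oocyte enzyme, was read at 2743, 2608 and 3063 CPM in control oocytes and at 771, 899 and 724 CPM in control embryos, a 3.58-fold fall (log2 -1.84, SE 0.11, edgeR adjusted p = 1.9e-08). Tet1, which is best known from pluripotent cells and primordial germ cells, had only 5.19, 4.92 and 3.07 CPM in control oocytes. In control embryos it reached 112, 79.5 and 109 CPM, which was a 22.4-fold rise (log2 4.48, SE 0.21, edgeR adjusted p = 1.95e-09). Tet2, the family member without a CXXC domain of its own, had 25.6, 23.7 and 16.4 CPM in control oocytes and 32.0, 28.9 and 23.4 CPM in control embryos. Those groups overlapped, and its change missed the threshold (log2 0.34, 95% interval -0.06 to 0.74, edgeR adjusted p = 0.101). It passed in 4 of 14 alternative analyses, with adjusted p between 0.0337 and 0.373 over all of them, and without replicate 3 of the control embryos the edgeR adjusted p was 0.0355.

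The 2 protectors also differed from each other. Zfp57, a zinc finger protein of the KRAB class, was read at 2806, 3011 and 2898 CPM in control oocytes and at 642, 689.8 and 519 CPM in control embryos. The fall was 4.79-fold, with no overlap (log2 -2.26, SE 0.12, edgeR adjusted p = 5.3e-09). Dppa3 had 624, 667 and 554 CPM in control oocytes and 633, 707 and 619.5 CPM in control embryos. These groups overlapped, and the log2 change of 0.06 had a 95% interval from -0.14 to 0.27 (edgeR adjusted p = 0.54). An annotated pseudogene copy of Dppa3 exists in the GENCODE annotation, as for Dnmt3a and Dnmt3l, and the assignment of shared reads is not known here.

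The same transition was measured a second time in libraries not used above, from knockout oocytes to maternal knockout embryos. Here 6 of the 10 genes fell and 3 rose, where 37.7% of 16592 tested genes fell and 42.5% rose, and the ranges did not overlap for these 9, as for 86.9% of all genes. The 6 that fell were again Dnmt1 (log2 -3.10), Uhrf1 (-2.37), Zfp57 (-2.16), Tet3 (-1.59), Dnmt3l (-1.31) and Dnmt3a (-1.15), each with an edgeR adjusted p of at most 1.87e-06. Dnmt3b rose by 0.54 (edgeR adjusted p = 0.00184) and Tet1 by 4.29 (edgeR adjusted p = 1.13e-07) on the log2 scale.

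Tet2 passed the test in these libraries, from 18.5, 22.9 and 21.9 CPM in knockout oocytes to 39.3 and 40.3 CPM in maternal knockout embryos. The groups were apart, and the rise was 1.82-fold (log2 0.87, SE 0.12, edgeR adjusted p = 0.000125). That Tet2 passed here and not in the controls does not show a difference between genotypes, which is a test of its own. Dppa3 again missed the threshold (log2 0.12, 95% interval -0.10 to 0.35, edgeR adjusted p = 0.275). Its value rested on the 2 embryo libraries, with a log2 change of 0.27 (edgeR adjusted p = 0.00368) without replicate 2 of the maternal knockout embryos and of -0.06 without replicate 3.

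**Figure D2:**
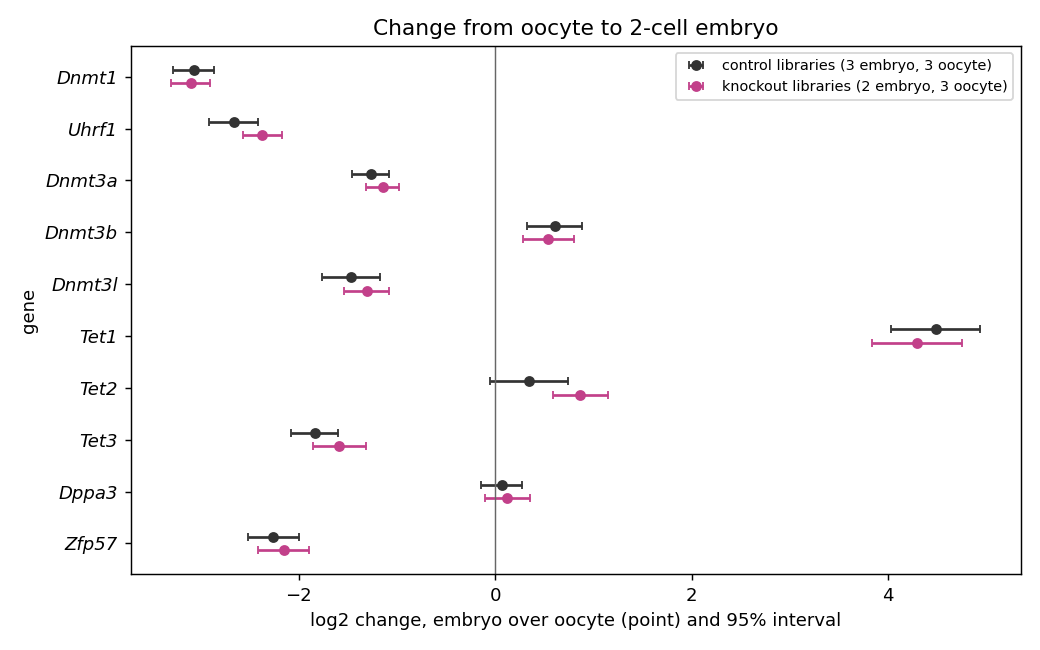
Log2 change from oocytes to 2-cell embryos for each of the 10 genes, in control libraries and in knockout libraries, with 95% intervals. Dnmt1 lies near -3 and Tet1 above 4 in both, and the interval of Dppa3 includes 0 in both.

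Since family members fell and rose by unlike amounts, the composition of each family changed. Of the reads per kb of Dnmt1, Dnmt3a and Dnmt3b together, Dnmt1 held 91.9% ± 0.422 (SD, n = 3) in control oocytes and 69.1% ± 0.766 in control embryos. The share of Dnmt3a went from 6.66% ± 0.434 to 17.4% ± 1.43 and that of Dnmt3b from 1.40% ± 0.0482 to 13.4% ± 1.34. Within Dnmt3a, Dnmt3b and Dnmt3l alone, Dnmt3b held 7.03% ± 0.248 in control oocytes and 23.4% ± 3.67 in control embryos, and Dnmt3l 59.5% ± 1.49 and 46.3% ± 4.42. The groups did not overlap in these 5 shares. The share of Dnmt3a among those 3 genes was 33.5% ± 1.72 and 30.3% ± 2.44, and there the groups overlapped.

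Among the Tet genes, Tet3 made up 99.0% ± 0.280 of the reads per kb in control oocytes and 87.7% ± 2.36 in control embryos. Tet1 went from 0.126% ± 0.0401 to 8.89% ± 2.19, and Tet2 from 0.864% ± 0.240 to 3.41% ± 0.458. Per kb there were 859 ± 339 reads of Tet3 for each read of Tet1 in control oocytes and 10.4 ± 3.28 in control embryos. The ratio of Dnmt1 to Tet3, a copier against an eraser, went from 1.39 ± 0.0507 to 0.595 ± 0.0797, and that of Zfp57 to Dppa3 from 1.204 ± 0.106 to 0.239 ± 0.0236. The ratio of Dnmt1 to Uhrf1 moved less, from 1.46 ± 0.0687 to 1.11 ± 0.152, but its groups did not overlap either. That of Dnmt3a to Dnmt3l was 0.5635 ± 0.0432 and 0.659 ± 0.101, and there the groups overlapped. Of 15 such shares and ratios, 13 did not overlap between control oocytes and control embryos and 14 between knockout oocytes and maternal knockout embryos. Exact two-sided permutation tests cannot go below p = 0.1 with 3 against 3 libraries (adjusted over the 15, 0.115) or 0.2 with 2 against 3 (0.214).

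**Figure D3:**
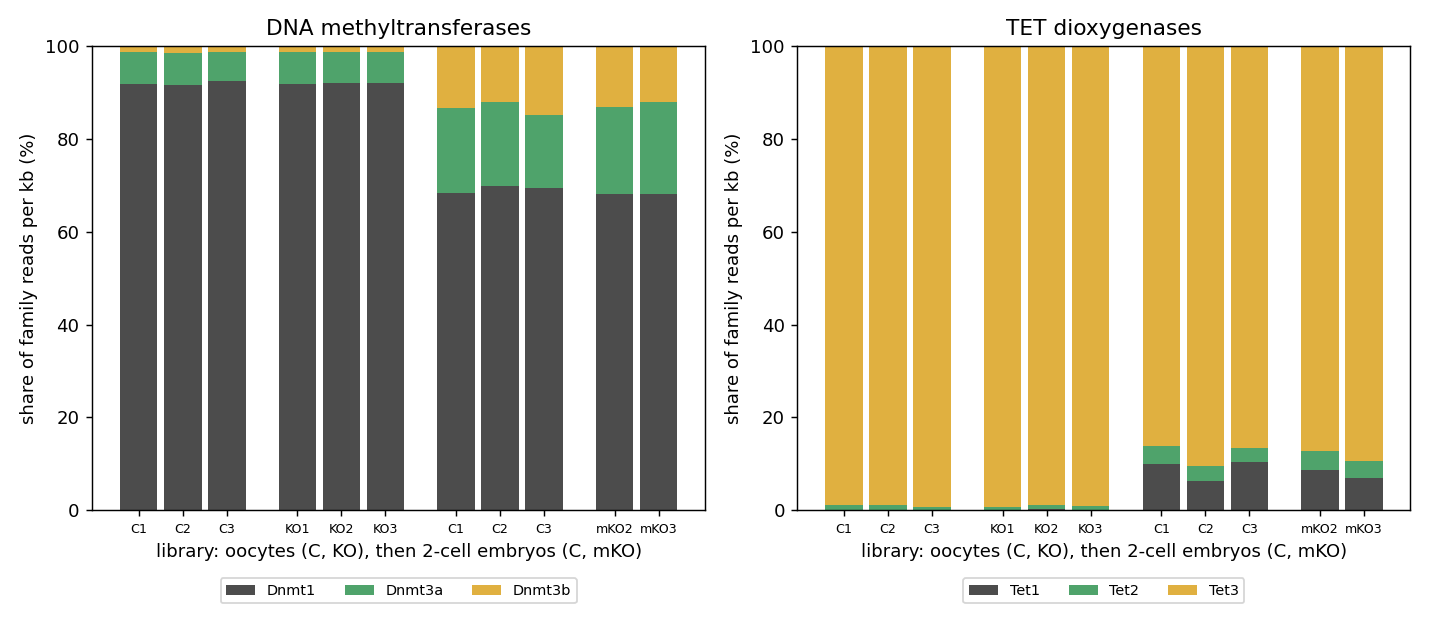
Share of each family member in the family's reads per kb, in percent, with a stacked bar per library (C, control; KO, knockout; mKO, maternal knockout). Beside Dnmt1, the Dnmt3a and Dnmt3b parts are wider in every embryo library than in the oocyte libraries, and Tet1 becomes visible only in the embryos, at 6.37% or more.

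Between knockout and control oocytes none of the 10 genes passed the test, against 0.583% of all 14235 genes tested, and none had an unadjusted p under 0.05 in edgeR, DESeq2 or limma-voom. Over 14 alternative analyses 0 to 2 of the 10 genes had such a p, and none passed the test. The CPM ranges of the 2 genotypes overlapped for all 10. Among all tested genes 15.7% did not overlap, a share at which 10 genes are too few to be set apart from the rest. The 10 genes had a median log2 change of -0.06 and all genes one of 0.00. Summed markers of other cells and of the 2-cell stage lay higher in all knockout than in all control oocytes, at 43.8 to 46.2 against 35.9 to 40.97 CPM for granulosa and cumulus cells, 5.003 to 8.56 against 3.07 to 4.06 CPM for 2-cell markers, 214.5 to 222.7 against 202.4 to 209.7 CPM for spermatids and 2.70 to 3.35 against 1.17 to 2.36 CPM for blood. Single markers did not all follow their sum. Cyp19a1 was at 17.17 to 18.71 CPM in knockout and 18.51 to 19.55 CPM in control oocytes, while 5 of the 6 tested markers of its list changed upward. Odf2 overlapped, at 202.5 to 211.3 against 195.6 to 203.2 CPM. Of the 5 tested spermatid markers 1 passed the test, as higher in the knockout. The part of all these markers in the values of the 10 genes was not tested.

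The intervals say how large a change these libraries leave possible. Dnmt1, at 2075, 2239 and 2217 CPM in the knockout oocytes, had a log2 change of -0.09 with a 95% interval from -0.20 to 0.02. Zfp57 was at 2888, 2942 and 3012 CPM and had an interval of -0.09 to 0.10. Tet3, at 3148, 2642 and 2946.5 CPM, was spread more widely, with an interval of -0.16 to 0.23.

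Uhrf1 was read at 749, 817 and 825 CPM in the knockout oocytes, Dppa3 at 566, 605 and 579.9 CPM, and Dnmt3a at 247, 261 and 260.2 CPM. Their log2 changes were -0.06, -0.09 and -0.07, and every one of these values lay close to its control. Dnmt3l at 116, 111 and 115 CPM and Dnmt3b at 19.1, 21.0 and 19.9 CPM changed by 0.01 and -0.12. Both overlapped their controls. The widest intervals were those of the low genes, Tet2 at 18.5, 22.9 and 21.9 CPM (-0.44 to 0.30) and Tet1 at 3.75, 6.67 and 5.72 CPM (-0.28 to 0.84). For the 9 genes other than Tet1, all intervals lay between 0.740-fold and 1.23-fold, and for Tet1 the interval ran from 0.822-fold to 1.79-fold. Zfp57 lies 3.09 Mb from Daxx on chromosome 17, and both genotypes carry the floxed allele.

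Between maternal knockout and control embryos none of the 10 genes passed the test either, against 0.026% of 15414 genes tested. In this fit Tet2 had an unadjusted edgeR p under 0.05, and over 13 alternative analyses 0 to 3 of the 10 genes had one, with 0 without replicate 3 of either genotype. Tet2 was at 39.3 and 40.3 CPM in the maternal knockout against 32.0, 28.9 and 23.4 CPM in the control embryos. Both knockout libraries lay above all controls (log2 0.46, 95% interval 0.07 to 0.86, edgeR adjusted p = 1). Tet3 showed the same arrangement, with 908 and 1092 CPM above 771, 899 and 724 CPM (log2 0.29, 95% interval -0.02 to 0.61, edgeR adjusted p = 1). Without replicate 3 of the maternal knockout embryos that log2 change was 0.11, and without replicate 2 it was 0.45. Among all genes tested, 11.4% lay wholly higher in the maternal knockout embryos in this way. The summed oocyte markers also lay higher in these 2 libraries, at 2029.7 to 2050.1 CPM against 1534 to 1859.7 CPM in control embryos, with 10 of 10 markers higher, a median log2 change of 0.20, and none past the test. Their part in the values of Tet2 and Tet3 was not tested.

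The other 8 genes overlapped between the embryo genotypes. Uhrf1, at 168 and 151 CPM in the maternal knockout, had a log2 change of 0.24 (95% interval -0.08 to 0.57, and 0.15 to 0.39 with single libraries left out), with its lower library just under the highest control at 154 CPM. Dnmt1, its partner, was at 275 and 250.3 CPM and had a log2 change of -0.11 (95% interval -0.39 to 0.17). Dnmt3a at 122 and 117 CPM, Dnmt3b at 33.0 and 27.2 CPM and Dnmt3l at 44.1 and 51.2 CPM changed by 0.06, -0.18 and 0.18 on the log2 scale. None of the de novo genes was thus set apart from its controls. Tet1 at 112 and 106 CPM, Dppa3 at 595 and 716 CPM and Zfp57 at 617 and 747 CPM changed by 0.09, -0.03 and 0.11. Over the 10 genes the 95% intervals ran from 0.678-fold for Dnmt3b to 1.82-fold for Tet2. The interval was wider than in the oocytes for 9 of the 10 genes and narrower for Tet1.

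The difference of the genotype effect between embryos and oocytes was tested in a fit of all 11 libraries. None of the 10 genes passed, against 0.0118% of 17018 genes. Tet2 had a difference of 0.52 on the log2 scale (95% interval 0.01 to 1.03, edgeR adjusted p = 0.913), Uhrf1 of 0.29 (-0.02 to 0.60) and Tet3 of 0.25 (-0.11 to 0.60). The other 7 differences lay between -0.19 for Tet1 and 0.15 for Dnmt3l. Hence the larger stage change of Tet2 in the knockout libraries was not shown to differ from that in the controls.

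**Figure D4:**
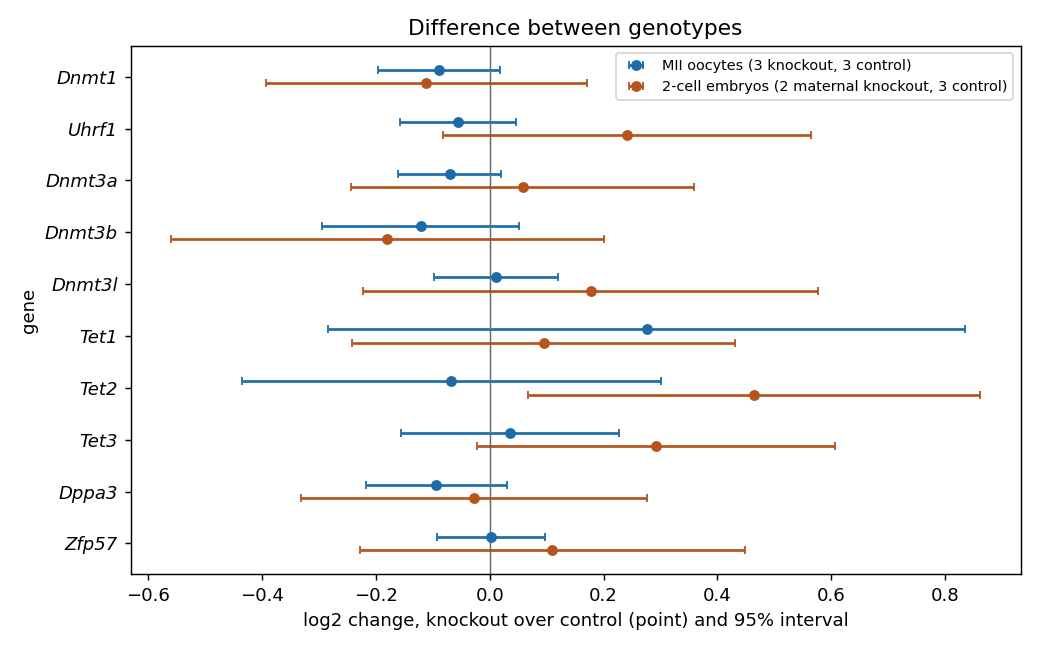
Log2 change of knockout over control for each of the 10 genes, in oocytes and in 2-cell embryos, with 95% intervals. All intervals include 0 except that of Tet2 in embryos, 0.07 to 0.86, which did not pass the test over all genes.

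To place the 10 genes in their pathway, 7 further lists with 73 genes in the table were counted. From control oocytes to control embryos 28 of the 71 tested genes rose and 29 fell, and in the knockout libraries 29 rose and 27 fell. Among all genes 43.1% rose and 40% fell in the control libraries and 42.5% and 37.7% in the knockout libraries, so that these counts lie near the background. The counts of the single lists in the control libraries stand beside the same 43.1% and 40%. The median log2 change over these genes was -0.07 in the control libraries, beside 0.07 over all genes. Of the partners of maintenance methylation 4 of 10 rose and 4 fell. Uhrf2, the paralog of Uhrf1, rose from 2.30 ± 0.191 to 25.9 ± 5.91 CPM (SD, n = 3; log2 3.47, SE 0.20), while the DNA ligase Lig1 fell from 29.7 ± 0.399 to 4.94 ± 1.05 CPM and Dmap1, a binding partner of Dnmt1, from 43.1 ± 0.684 to 7.35 ± 0.969 CPM. Uhrf1 and Uhrf2 therefore moved in opposite directions.

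Among the genes that guide de novo methylation 3 of 10 rose and 6 fell, beside 43.1% and 40% of all genes. Setd2, which writes the histone mark H3K36me3 that recruits Dnmt3 enzymes, rose from 358 ± 29.6 to 1341 ± 147 CPM (log2 1.88, SE 0.11). Morc1, a germline silencer of transposons, rose from 74.5 ± 7.72 to 245 ± 53.9 CPM, and Cxxc1, which binds unmethylated CG, fell from 87.2 ± 4.47 to 19.7 ± 1.72 CPM. Of 7 genes of imprint protection 4 rose and 1 fell. Zfp445, a second zinc finger protein of imprinted regions, rose from 50.1 ± 3.52 to 162 ± 22.6 CPM (log2 1.66, SE 0.12) while Zfp57 fell, and the H3K9 methyltransferase Setdb1 fell from 486 ± 7.80 to 173 ± 9.86 CPM. Zfp42, also called Rex1, rose from 1.13 ± 0.189 to 19.2 ± 6.25 CPM.

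Of 10 tested regulators of the Tet enzymes 4 rose and 3 fell, beside 43.1% and 40% of all genes. Idh1, which makes the Tet cofactor 2-oxoglutarate, fell from 28.5 ± 3.81 to 3.85 ± 0.129 CPM and the ubiquitin ligase scaffold Cul4a from 23.2 ± 3.55 to 5.30 ± 1.02 CPM. Zscan4f, which is also among the 2-cell markers, rose from 0.123 to 0.364 CPM in control oocytes to 17.6 to 32.2 CPM in control embryos. Of 16 genes of base excision repair and deamination 7 rose and 6 fell, with Tdg too low to be tested. The DNA glycosylase Neil3 fell from 195 ± 17.6 to 18.7 ± 1.23 CPM (log2 -3.41, SE 0.11), and Xrcc1, a scaffold of strand break repair, from 60.5 ± 2.31 to 7.93 ± 1.22 CPM. Gadd45b rose from 0.0781 to 0.301 CPM in oocytes to 49.4 to 79.0 CPM in embryos.

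Of 9 readers of methylated CG 3 rose and 4 fell, beside 43.1% and 40% of all genes, among them Mbd5, which rose from 108 ± 5.69 to 217 ± 14.8 CPM, and Mbd3, a subunit of the NuRD complex, which fell from 48.4 ± 2.42 to 29.7 ± 2.70 CPM. Zbtb4 rose too, from at most 0.0754 CPM in control oocytes, within what a count of 0 allows, to 1.202 to 2.23 CPM. Of 9 genes of methyl donor supply 3 rose and 5 fell. Among the genes for methionine adenosyltransferase, which makes the methyl donor, Mat2a rose from 43.9 ± 4.31 to 274 ± 25.9 CPM and Mat1a fell from 32.5 ± 2.01 to 4.47 ± 0.812 CPM. Every change named here had an edgeR adjusted p of at most 6.1e-05.

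None of these further genes passed the test between genotypes, with 61 tested in oocytes and 70 in embryos, or in the difference between stages. Unadjusted edgeR p-values under 0.05 were found for 8 of the 61 in oocytes (4 higher and 4 lower in the knockout), for 0 of the 70 in embryos and for 4 of the 71 in the difference. Over all genes 10.3%, 3.19% and 5.41% had such p-values in the same comparisons. DESeq2 and limma-voom also called none of them.

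**Figure D5:**
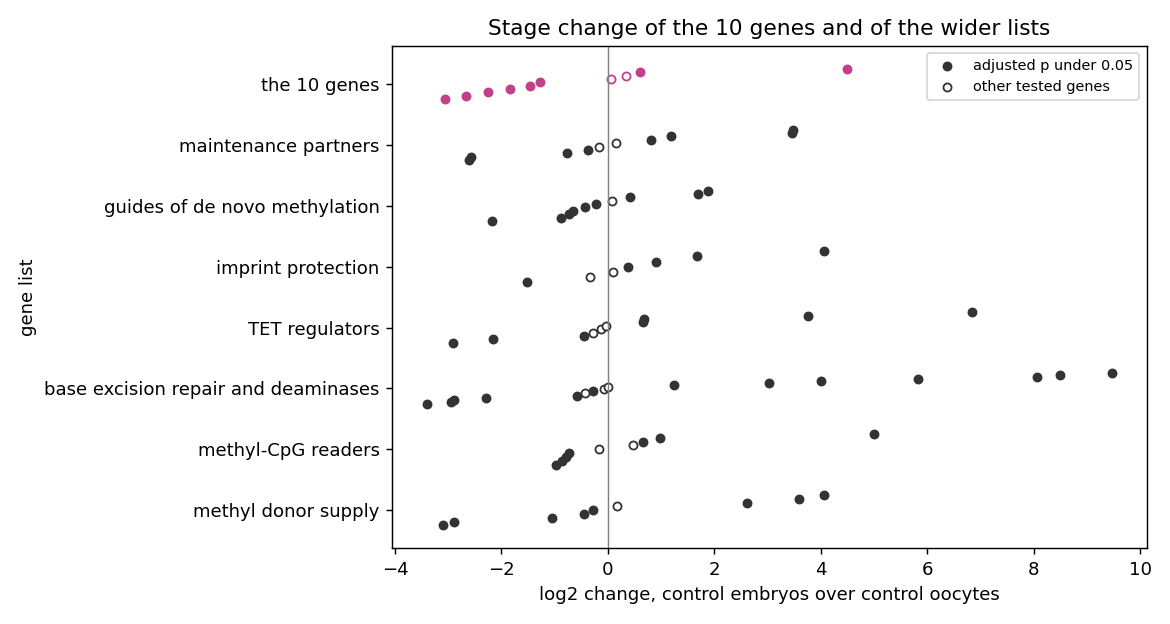
Log2 change from control oocytes to control embryos for the 10 genes and for each tested gene of the 7 wider lists, with filled points for an adjusted p under 0.05. Each list holds genes on both sides of 0, and the changes of genes almost without reads in oocytes, such as Gadd45b, depend on the small count that the fit adds.

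Genes whose log2 CPM followed each of the 10 most closely over the 11 libraries were sought among 9453 genes, as a description, since the libraries form 2 stages and share depth within a stage. For genes with a large stage change, very many others had a Pearson r over 0.95, 3112 for Dnmt1. Its closest were Timeless (r = 0.999), a replication fork protein, and Ddx11 (r = 0.999), a DNA helicase. Dnmt3b had 219 such genes, led by Mettl16 (r = 0.989) and Dna2 (r = 0.980). Tet1 was closest to D16Ertd472e (r = 0.998) and Dhx15 (r = 0.997), Uhrf1 to Tbc1d14 and Fam160a1, Tet3 to Stard13 and Pcid2, Zfp57 to Ppfibp2 and the oocyte homeobox gene Obox1, Dnmt3a to Fcho1 and Gatad1, and Dnmt3l to Gnas and Eef2k. Tet2 had only Nlk above that limit (r = 0.957), followed by Khdc1a (r = 0.936). Dppa3 had none, with Arid4a at r = 0.888 and Klhdc1 at r = 0.862.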

How the data were processed

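The authors deposited whole-number read counts per gene for 24421 genes by Entrez number, and a gene width. The submitters' processing notes name STAR 2.5.0a, SAMtools and the build GRCm38 (mm10), and, per the labels' protocols, libraries were made with the NuGEN SoLo RNA-Seq system. The program that counted the reads is not stated in these sources. Symbols and coordinates are from RefSeq (24387 identifiers matched). The deposited width had a median of 89.2% of the GENCODE exon length. CPM are counts scaled by the library total. A count of 0 allows up to 0.0754 to 0.167 CPM (3 counts), for counting error only.

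Tests used edgeR 4.0.16 in R 4.3.3 on the libraries of each comparison (filterByExpr, count minimum 10, total minimum 15; TMM; robust quasi-likelihood F test), with Benjamini-Hochberg adjustment over all genes and a threshold of 0.05. The SE is the log2 change over the square root of F. Alternatives used DESeq2 1.42.0, limma 3.58.1 (voom), RLE factors, library totals, other filters, a block for the replicate number, a joint fit of all 11 libraries, and leaving out single libraries. The fits were tested on simulated counts.

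The genes and lists were chosen with earlier results of these data known. Named from each wider list were the 3 genes with the smallest p between control stages and any that passed in a genotype comparison, and a gene that this rule names is not reported here; alternatives for the wider lists were chosen after seeing the data. For each of the 10 genes the 2 genes with the highest r are named. Replicate pairs differed by more than sampling noise (chi-square per degree of freedom 4.86 to 34.3). Replicates were separate pools. A first replicate of maternal knockout embryos was not analysed here.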

Additional observations from a re-analysis of the deposited data

Results flagged for a closer look

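The effect of the knockout on Daxx itself differed between the stages, by a test of that difference. The log2 change of -3.52 in oocytes and of -0.75 in embryos differed by 2.76 (SE 0.16, edgeR adjusted p = 3.38e-07). Daxx was at 7.83 to 8.40 CPM in knockout oocytes and at 22.8 and 25.5 CPM in maternal knockout embryos, which carry a paternal allele. No group had enough libraries for the check of single libraries that stand apart.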

How the results depend on the processing

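The counts of the 10 genes called in each of the 5 comparisons stayed within 1.5 times their value under every alternative run, and Dnmt1, Uhrf1, Dnmt3a, Dnmt3b, Dnmt3l, Tet1, Tet3 and Zfp57 passed in both stage comparisons under all of them. Over all genes, the count called in oocytes was 83. It was lowest without control replicate 2, with 16 genes higher and 5 lower. It was 22 in a joint fit of all 11 libraries and highest with DESeq2, at 223. In embryos the count was 4 and ranged from 0 without control replicate 1 or 3 to 32 without the low-count filter. In the control stage comparison 6708 genes were called higher and 6231 lower with TMM, and 6983 and 5900 with RLE factors, where the median of all genes was 0.17 in place of 0.07. Effects near 0 changed sign. In oocytes Zfp57 was at -3.18e-05 with DESeq2 and -2.31e-05 with RLE factors, and in embryos Dppa3 was at 0.00563 with library totals. With each library left out in turn, log2 changes in oocytes ran from -0.025 to 0.025 for Zfp57, from -0.025 to 0.048 for Dnmt3l, from -0.23 to 0.055 for Tet2 and from -0.023 to 0.11 for Tet3. In embryos they ran from -0.21 to 0.13 for Dppa3, from -0.036 to 0.20 for Tet1 and from -0.077 to 0.27 for Zfp57. For Dppa3 between stages they ran from -0.012 to 0.11 in controls and from -0.057 to 0.27 in knockouts. For the difference of the genotype effects they ran from -0.090 to 0.015 for Dnmt1, from -0.39 to 0.010 for Tet1, from -0.19 to 0.045 for Dnmt3b, from -0.068 to 0.25 for Zfp57 and from -0.11 to 0.21 for Dppa3. The cause was not tested. Where an arm keeps 1 library, its spread is assumed to be that of the other group.

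Libraries of the same replicate number showed little correlation, but with 2 or 3 libraries per group this check cannot decide whether they were paired. Deviations of libraries with the same number had correlations of -0.108 to 0.087 in oocytes and -0.102 to -0.025 in embryos. Between stages they were -0.038 to 0 in controls and 0.002 to 0.047 in knockouts. A library correlated best with its own number in 2 of 6, 0 of 4, 0 of 6 and 3 of 4 cases. The deviations of the 2 maternal knockout embryo libraries mirror each other, so the cases with them are not independent. With the replicate block, 110 genes were called in oocytes (78 higher, 32 lower) and 2 in embryos, none of them among the 10, and Tet2 passed between control stages (log2 0.35, adjusted p = 0.0338).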

Other observations

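In the maternal knockout embryos the per-kb ratio of Dnmt1 to Uhrf1 was 0.852 and 0.864, below the 0.973 to 1.27 of the control embryos. Uhrf1 stood above Dnmt1 in both and also in 1 of the 3 control embryo libraries. The ratio of Dnmt1 to Tet3 was 0.390 to 0.515 against 0.545 to 0.687. Of the 15 shares and ratios computed, 5 did not overlap between the embryo genotypes and none between the oocyte genotypes. With 2 against 3 libraries an exact two-sided permutation test cannot go below p = 0.2 (adjusted over the 15, 0.6), so these are values without a passed test.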
